A study of Mus musculus with 8 samples.

Results

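Genes that encode homing receptors of lymphocytes were examined, namely Ccr7, S1pr1, Cxcr4, Itgb7, Cxcr5, Ccr6 and Ccr9. The 7 genes were chosen by name, with earlier results of these data known, out of 21596 protein-coding genes with a tested locus. A locus was the gene body with 10 kb to each side (GENCODE M21 annotation, GRCm38). Methylated cytosines were counted by whole-genome bisulfite sequencing, which converts unmethylated cytosines and leaves methylated ones, in lymphocytes from the spleens of C57BL/6J mice aged 6 to 8 weeks. Resting B cells (CD43-) and naive CD4+ T cells (CD44lo, CD25-) were taken from females and from males, which gives 4 groups. The labels list 2 samples per group but 1 file for both, so each cell type was seen once in each sex and the files are called female B, male B, female T and male T. The cells of a sample were pooled from several mice, and spread between single animals cannot be seen.

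Homing receptors are cell surface proteins that read chemokines, lipids or vessel adhesion molecules, and so decide where a lymphocyte settles. Ccr7 binds CCL19 and CCL21 and brings naive cells into the T cell zone of lymph nodes. S1pr1 senses sphingosine-1-phosphate and allows exit into blood and lymph, Cxcr4 binds CXCL12 of the bone marrow stroma, and Itgb7 encodes the beta7 integrin chain that binds MAdCAM-1 on gut vessels. These 4 genes were classed as shared by naive B and T cells. Cxcr5, which binds CXCL13 of the B cell follicle, and Ccr6, the receptor for CCL20, were classed as B cell receptors, and Ccr9, the receptor for CCL25 of thymus and small intestine, as a T cell receptor. CpG methylation is low at active promoters and often falls over enhancers used in a cell lineage, while the bodies of transcribed genes are generally highly methylated.

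The 7 loci cover 353 kb and hold 4042 CpGs, of which 3657 (90.5%) had 5 or more reads in all 4 files and were used. Ccr9 had the smallest share in use, 762 of 985 CpGs, and Ccr6 the largest, 471 of 482. Mean autosomal depth was 14.6 to 17.7 reads per CpG, and genome-wide methylation was 79.5% to 80.7%. The cell type labels were checked at promoters of marker genes, with a promoter being the gene start with 1 kb to either side. Of the B cell markers 6 of 7 were called lower in B cells, against 0.432% of all promoters. Of the T cell markers 8 of 9 were called higher in B cells, against 0.484% of all promoters. Of 8 markers of other cells that a sort could hold, Cd8a and Cd8b1 were called, both higher in B cells, and their part in the results below was not tested. A level between 0% and 100% cannot tell a mixture of cells from a mixture of alleles within a cell, and 5-methylcytosine and 5-hydroxymethylcytosine are read alike.

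B and T cells differed in many windows of these loci. The 3657 CpGs gave 311 windows of 1 kb with 3 or more CpGs. A window was called where a quasi-binomial model with terms for cell type and sex gave an adjusted p under 0.05 over all windows of the genome and the mean B minus T difference was 20 percentage points or more. By this rule 60 of 311 windows (19.3%) were called, against 2.08% of all windows in the genome. Of these, 37 were higher in B cells, against 1.16% of all windows, and 23 were lower in B cells, against 0.913%. The median size of the difference was 5.51 points in the loci and 2.26 points over all windows. Around the marker genes, 21.9% of windows were called for B cell markers and 31.5% for T cell markers. For the markers of other cells 12.7% were called (38 of 299). All 60 called windows had the same direction in females and in males, their B and T files did not overlap, and 52 differed by 20 points or more in each sex. This is largely set by the rule, because the windows were called on the same 4 files, and it is no separate result. The share of all windows with these traits was not computed. The gap between the 2 B files in these windows was 4.14 points at the median and 21 at most, and that between the 2 T files 3.51 and 18.9. Each locus held at least 1 called window, which 47.6% of protein-coding gene loci did. The calls rest on an average spread between files taken from windows with enough reads of each kind: with the spread estimated from all windows instead, 0 windows were called in the loci and 0 in the genome, while 43.4% of the windows in the loci and 9.83% of all windows had an unadjusted p under 0.05. By limma on log2 ratios 42 of the 60 were called, against 1.02% of all windows. There 38.3% of the windows in the loci had an unadjusted p under 0.05, against 11.2% of all windows. The model's p-values for windows use the average spread and not that of the window itself, and they fall as read counts rise.

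**Figure D1:**
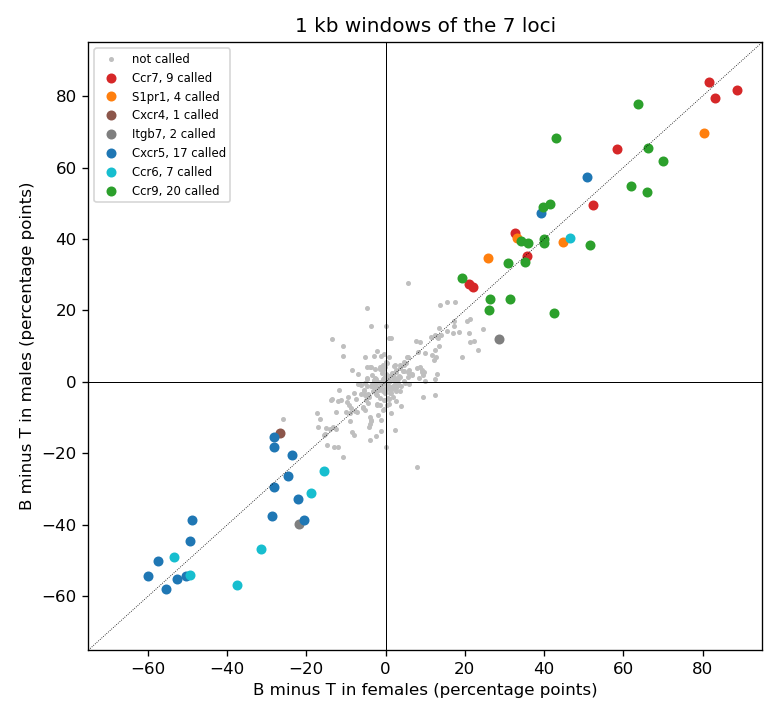
B minus T methylation difference of the 1 kb windows of the 7 loci, in percentage points, in females (horizontal axis) and males (vertical axis). Coloured points are the 60 called windows by gene, grey points the windows not called, and the dotted line marks equal differences. Called windows lie near the line, Ccr7, S1pr1 and Ccr9 in the upper right and most of Cxcr5 and Ccr6 in the lower left.

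In the loci of the cell-type receptors most called windows were lower in the cell type of the class. The B class holds 2 genes and the T class 1, and windows of the same gene are not separate cases. In the loci of the B cell receptors Cxcr5 and Ccr6, 24 of 108 windows were called and 21 of them were lower in B cells. In the locus of the T cell receptor Ccr9, 20 of 89 windows were called and all 20 were higher in B cells, that is lower in T cells. The 4 shared receptors had 16 called windows of 114, 14 with more methylation in B cells and 2 with less. The direction seen at Ccr9 was thus not particular to its class. The shared genes differed among themselves: Ccr7 had 9 called windows of 31 and S1pr1 4 of 24, all higher in B cells, whereas Itgb7 had 2 of 36 and Cxcr4 1 of 23. Among all protein-coding loci, a share of called windows as high as that of Ccr7 was reached by 0.375%, of Cxcr5 by 0.621%, of Ccr9 by 0.834%, of Ccr6 by 1.55% and of S1pr1 by 2.13%. The shares of Itgb7 and Cxcr4 were reached by 16.9% and 22.8% of loci.

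Most called windows lay within the genes. In the gene bodies 47 of 185 windows were called, in the upstream flanks 8 of 64 and in the downstream flanks 5 of 62. The bodies held 33 windows higher and 14 lower in B cells, and 7 of the 8 upstream windows were lower in B cells. All 8 upstream windows lay in the loci of Cxcr5 (6) and Ccr6 (2), as did the 14 lower body windows (10 and 4). Of the body windows higher in B cells, Ccr9 held 19, Ccr7 8 and S1pr1 3. The part of the gene and the gene itself thus cannot be told apart here. The loci are crowded, and 84 windows touched another annotated gene. Of these 12 were called, while 48 of the 227 windows that touched none were called. Of the 12, 10 lie in the locus of Ccr9, whose annotated body contains Lztfl1 and overlaps the antisense transcript AC165425.1.

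Ccr7 showed the widest difference. The gene lies on the minus strand at chr11:99144196-99155077, and its start was unmethylated in both cell types: within 500 bp of it the level was 5.97% in female B, 2.70% in male B, 0.791% in female T and 0% in male T. Farther into the gene the cell types parted. The window with the largest difference, chr11:99152001-99153000 in the first intron, had 89.2% in female B (95% Wilson interval of counting error 82.3% to 93.6%, 120 reads) and 82.5% in male B (137 reads). In the same window 0.476% was found in female T (210 reads) and 0.709% in male T (141 reads). Both B files were thus almost fully methylated and both T files almost unmethylated. The mean difference was 85.2 points (adjusted p = 1.61e-91, by limma 0.00278).

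This window was part of a longer stretch. In T cells a single low-methylated stretch, where the running level of 5 CpGs stayed under 30%, ran from the start into the gene over 8953 bp in female T and 9021 bp in male T. In B cells the stretch at the start was 1484 bp wide in female B and 1536 bp in male B, and further low islands inside the gene were separated by methylated DNA. The longest run of CpGs that each differed by 20 points or more in both sexes held 31 CpGs over 2436 bp of the first intron, at 86.1% and 84.7% in female and male B and 1.16% and 0.929% in female and male T. In all, 8 of the 12 windows of the Ccr7 body were called. Over the whole locus with its flanks, 100 of 441 CpGs (22.7%) were in such runs, against 1.12% of CpGs genome-wide.

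The stretch of the Ccr7 locus with the most differing CpGs lies at the edge of the last coding exon, and all of its 13 CpGs differed by 20 points or more in both sexes. The levels over the stretch were 89.1% in female B, 91.5% in male B, 15.7% in female T and 8.21% in male T. It is shown 5′ to 3′ on the plus strand of GRCm38, with CpGs in capitals.
Ccr7 chr11:99145771-99146070: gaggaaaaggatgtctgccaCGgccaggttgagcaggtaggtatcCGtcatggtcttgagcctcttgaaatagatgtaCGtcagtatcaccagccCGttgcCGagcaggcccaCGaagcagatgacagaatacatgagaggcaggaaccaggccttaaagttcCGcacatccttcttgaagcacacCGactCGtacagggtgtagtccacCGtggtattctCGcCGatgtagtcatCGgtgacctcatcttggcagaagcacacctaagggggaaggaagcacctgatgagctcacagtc

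S1pr1 had the second pattern of this kind, over its coding exon. Around its start, within 500 bp, all 4 files were between 0% and 1.15%. In the window chr3:115711001-115712000, which holds the end of the coding sequence and part of the 3′ UTR, the level was 90.2% in female B and 78.0% in male B. It was 9.76% in female T and 8.33% in male T, a mean difference of 75.0 points (adjusted p = 9.96e-73, by limma 0.00487). Both B files were high and both T files low here. The next window toward the start, which holds most of the coding sequence, was 41.9 points higher in B cells. The low-methylated stretch at the start was 2737 bp in female B and 2962 bp in male B, and 3967 bp in both T files, in which a second low stretch of 1425 bp followed inside the gene. The 300 bases of coding exon with the most differing CpGs hold 14 CpGs, of which 12 differed by 20 points or more in both sexes. Over these bases the level was 93.8% in female B, 91.0% in male B, 30.1% in female T and 34.3% in male T.
S1pr1 chr3:115712187-115712486: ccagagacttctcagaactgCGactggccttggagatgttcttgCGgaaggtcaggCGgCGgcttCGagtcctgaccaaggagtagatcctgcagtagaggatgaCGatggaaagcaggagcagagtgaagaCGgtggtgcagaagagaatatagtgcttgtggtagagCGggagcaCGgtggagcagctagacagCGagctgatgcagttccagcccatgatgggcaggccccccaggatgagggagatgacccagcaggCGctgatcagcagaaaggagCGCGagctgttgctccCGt

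Cxcr4 and Itgb7, the other shared receptors, had few called windows, 1 of 23 and 2 of 36. At a size of 10 points instead of 20 they had 4 and 10, against 4.19% of all windows. Cxcr4 had 1 CpG-rich low stretch around its start, 2887 bp wide in female B, female T and male T and 2915 bp in male B, with levels of 0.803% to 1.38%. No window of its body was called. Its only called window, chr1:128583001-128584000, lies downstream of the gene and was at 49.6% in female B and 52.1% in male B against 76.1% in female T and 66.4% in male T, a mean difference of -20.4 points (adjusted p = 0.00151) that is just past the size set for a call. This call was lost by limma (adjusted p = 0.347), by Fisher's exact test within each sex and with 2 kb windows. It was also lost without the female B file (-19.1 points, adjusted p = 0.0968) or the female T file (-15.6 points, adjusted p = 0.161). Within this window 3 CpGs formed a run with 10.3% and 0% in female and male B and 70.2% and 54.5% in female and male T. The CpGs of a run are picked for their difference. In the Cxcr4 locus runs held 6 of 343 CpGs (1.75%), against 1.12% of CpGs genome-wide.

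Itgb7 had a difference at its start that missed the size set for a call. Within 1 kb of the start the level was 34.6% in female B and 31.4% in male B against 16.2% in female T and 15.9% in male T, a mean difference of 16.9 points (adjusted p = 0.0171). It did not pass the adjusted p without any 1 of the 4 files, and with 2 kb to either side it was 9.77 points (adjusted p = 0.106). Both B files were above both T files. Just downstream of the start 5 CpGs over 246 bp had 51.0% and 50% in female and male B and 11.0% and 15.4% in female and male T, so that the low-methylated stretch was continuous in T cells (1401 bp and 1506 bp) and split in B cells. These CpGs formed a run, and runs held 12 of the 522 CpGs of the Itgb7 locus (2.30%), against 1.12% genome-wide. In the first intron a window at chr15:102229001-102230000 was 20.3 points higher in B cells (adjusted p = 0.00448). It lost the call by limma (adjusted p = 0.27), by Fisher's exact test within each sex, without the female B file (18.2 points, adjusted p = 0.137) and without the female T file (14.1 points, adjusted p = 0.219). The window with the largest difference, chr15:102209001-102210000, was 30.9 points lower in B cells (mean difference -30.9 points, adjusted p = 6.81e-31, by limma 0.0245). However, this window lies in the downstream flank within Zfp740. Inside Itgb7, 6 to 8 kb from the start, each file had a CpG-rich low stretch at 1.38% to 2.42%. These stretches were drawn in each file by their low level and differ in extent. The fixed window chr15:102224001-102225000 there was at 9.98% in female B, 8.40% in male B, 14.5% in female T and 14.3% in male T. Its mean difference was -5.21 points (adjusted p = 0.000553), under the size set for a call.

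**Figure D2:**
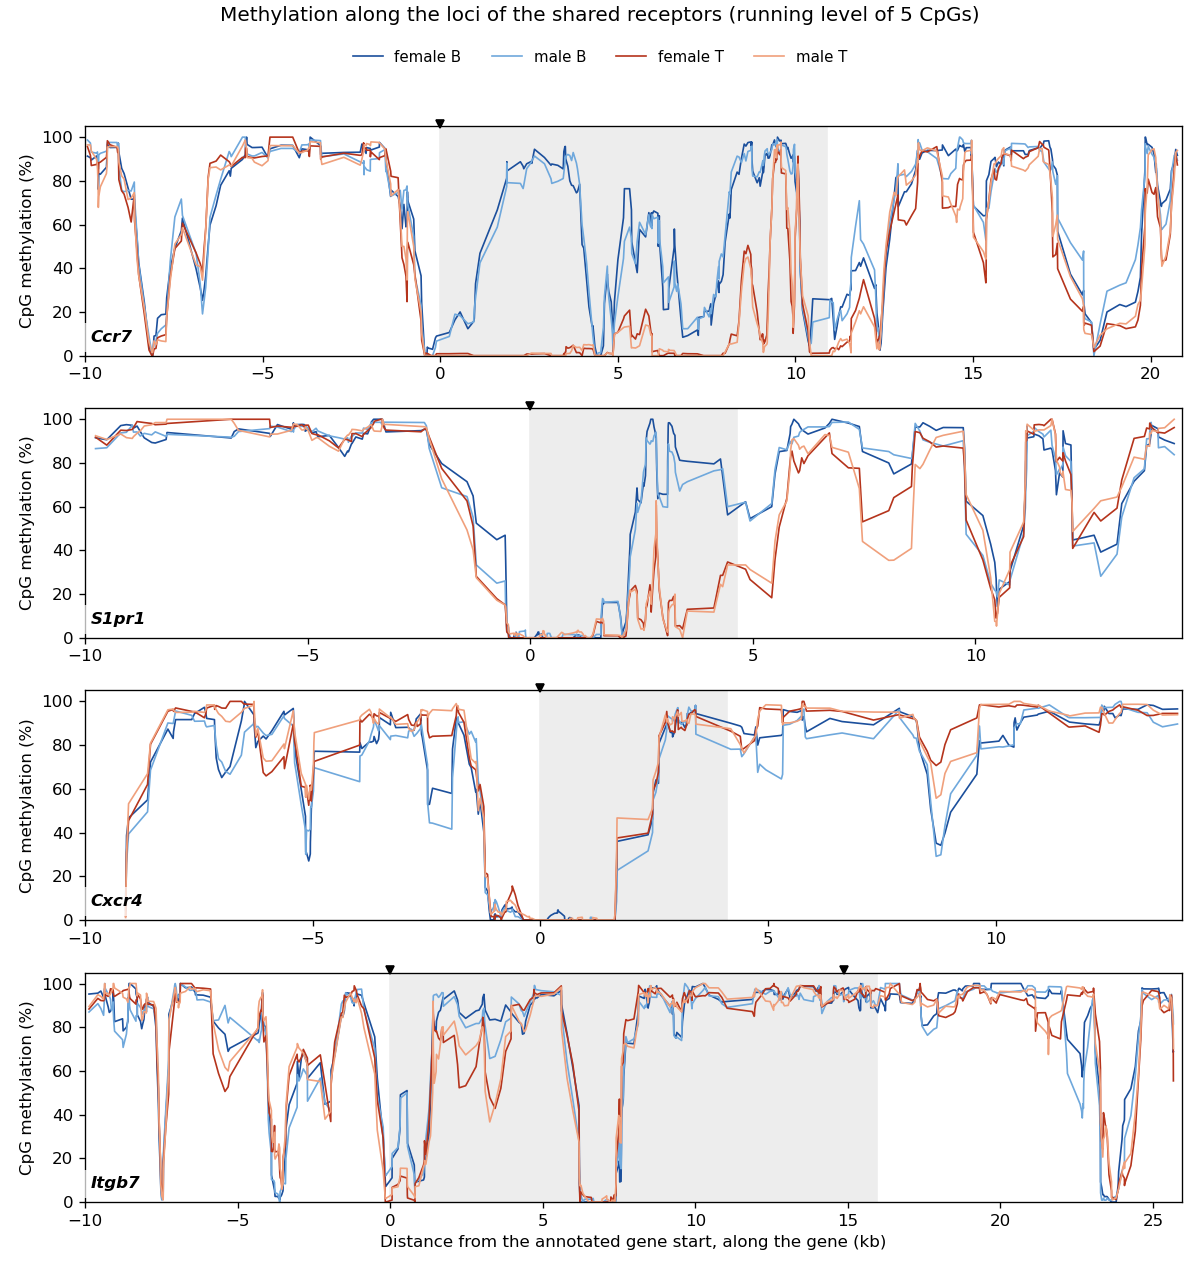
CpG methylation in percent (vertical axis, running level over 5 CpGs) along the loci of the shared receptors, by distance from the annotated gene start in kb along the gene (horizontal axis). Lines are the 4 files, grey marks the gene body and triangles mark transcript starts. In Ccr7 the T files stay near 0% over about 9 kb where the B files rise to over 80%, in S1pr1 the files part inside the gene, and in Cxcr4 they run together around the start.

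Cxcr5 was the locus with the most windows lower in B cells, 15 of 17 called. Its annotation has 3 separate transcript starts: the gene start at position 44561877 of chromosome 9, a second one 5.49 kb downstream and the last 35.3 kb downstream at 44526582. The first start was methylated in all files, at 73.3% in female B, 82.8% in male B, 88.0% in female T and 82.1% in male T within 500 bp. The last start was at 12.9% in female B (95% Wilson interval 7.68% to 20.8%) and 15.7% in male B (9.61% to 24.7%). It was at 63.3% in female T (54.7% to 71.1%) and 70.0% in male T (62.0% to 76.97%), a mean difference of -52.3 points (adjusted p = 3.64e-07). The intervals of the B and T files did not overlap, but they cover counting error within a file and not the spread between files. From this start into the gene, 6 adjoining windows from 44521001 to 44527000 were all called lower in B cells, by 22.0 to 56.7 points.

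Further windows of the Cxcr5 locus lay upstream of the gene. The window chr9:44571001-44572000, upstream of the gene start, was at 36.6% in female B and 42.2% in male B. It was at 96.7% in female T and 96.6% in male T. This was the largest difference of the locus toward lower in B cells (-57.2 points, adjusted p = 4.29e-109, by limma 0.00467). A run of 15 CpGs that reached into this window from the neighbouring one, over 735 bp, was at 15.9% and 13.7% in female and male B and 98.1% and 97.5% in female and male T. In the opposite direction, the window chr9:44563001-44564000 was at 82.1% in female B and 79.9% in male B. It was at 31.1% in female T and 22.5% in male T (54.2 points, adjusted p = 1.10e-61, by limma 0.0141). There 12 CpGs over 329 bp were at 3.96% to 5.92% in T cells and over 71% in B cells. This was against the direction of most windows of the locus. These 12 and the 15 CpGs above form runs, so they were picked for their difference. Runs held 95 of the 840 CpGs of the Cxcr5 locus (11.3%), against 1.12% genome-wide. The stretch with the most differing CpGs is the upstream one. All of its 10 CpGs differed by 20 points or more in both sexes, and no single CpG in it was above 50% in a B file or below 88.5% in a T file.
Cxcr5 chr9:44570933-44571232: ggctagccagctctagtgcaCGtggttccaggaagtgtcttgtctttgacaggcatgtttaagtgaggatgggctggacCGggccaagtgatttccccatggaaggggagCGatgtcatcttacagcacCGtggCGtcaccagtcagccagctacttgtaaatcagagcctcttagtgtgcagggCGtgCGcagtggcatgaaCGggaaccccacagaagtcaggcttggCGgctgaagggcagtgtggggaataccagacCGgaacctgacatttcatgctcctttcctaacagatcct

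Ccr6 had 7 called windows, 6 of them lower in B cells. The window with the largest difference, chr17:8238001-8239000 in the first intron, was at 25.9% in female B and 23.1% in male B. In female T it was at 75.3% and in male T at 77.1% (-51.7 points, adjusted p = 4.09e-70, by limma 0.0177). The first of its 4 transcript starts, at 8236043, did not differ beyond the spread between files: it was at 41.7% in female B, 45.7% in male B, 51.9% in female T and 42.5% in male T (adjusted p = 0.803). The starts 6.48 kb and 7.77 kb into the gene were called, with mean differences of -24.9 points (adjusted p = 1.97e-05) and -45.0 points (adjusted p = 5.69e-10). At the latter, female B had 62.9%, male B 35.0%, female T 94.1% and male T 93.7%, so the 2 B files differed from each other by more than the T files did. A run of 6 CpGs over 186 bp across this start was at 15.4% and 5.76% in female and male B. In female and male T the run was at 92.1% and 88.8%. Its CpGs were picked for their difference. Runs held 56 of the 471 CpGs of the Ccr6 locus (11.9%), against 1.12% genome-wide. The one window higher in B cells, chr17:8251001-8252000, was at 82.2% and 80% in female and male B. In female and male T it was at 35.6% and 39.8% (43.4 points, adjusted p = 1.34e-20, by limma 0.0326). The intronic stretch with the most differing CpGs held 9 CpGs, all past 20 points in both sexes, with 18.5% in female B, 18.4% in male B, 78.9% in female T and 88.3% in male T.
Ccr6 chr17:8238337-8238636: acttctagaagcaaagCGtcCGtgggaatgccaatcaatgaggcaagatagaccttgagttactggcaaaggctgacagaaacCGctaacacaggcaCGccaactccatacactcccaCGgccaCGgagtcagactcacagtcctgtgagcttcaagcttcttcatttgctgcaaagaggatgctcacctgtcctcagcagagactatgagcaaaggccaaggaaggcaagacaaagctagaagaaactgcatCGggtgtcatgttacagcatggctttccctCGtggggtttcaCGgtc

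Ccr9 had 20 called windows, more than any other of the 7 loci, and all were higher in B cells. Its annotated body is 105892 bp long because a single transcript starts far upstream, in a CpG island next to the start of Slc6a20a. That island was unmethylated in all files (1.98% in female B, 2.19% in male B, 2.45% in female T, 2.69% in male T). At the start 88.7 kb downstream, at 123767169, which 4 transcripts share, the level was 89.1% in female B and 79.8% in male B against 32.8% in female T and 34.3% in male T (50.9 points, adjusted p = 1.08e-06). The last start, 96.1 kb downstream, was 27.3 points higher in B cells (adjusted p = 2.96e-05). Across the start at 123767169 and downstream of it, a run of 18 CpGs over 2344 bp was at 86.5% and 83.1% in female and male B and 17.9% and 20.1% in female and male T. This run ended before the last start. Its CpGs were picked for their difference. Runs held 65 of the 762 CpGs of the Ccr9 locus (8.53%), against 1.12% genome-wide.

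The differences in Ccr9 fell into clusters. Of the 20 called windows, 14 had their centres 77.1 to 96.1 kb downstream of the gene start, around the starts of the other Ccr9 transcripts. Of the others, 3 overlapped Lztfl1, 2 lay between Lztfl1 and these starts and 1 was in the downstream flank, where Fyco1 and AC165425.1 lie. The window with the largest difference, chr9:123771001-123772000, had only 3 CpGs and 25 to 46 reads in a file. It was at 92.0% in female B, 100% in male B, 28.3% in female T and 22.2% in male T (70.8 points, adjusted p = 1.16e-11, by limma 0.00977). The intronic stretch with the most differing CpGs is poor in CpGs, with 5 in 300 bases, and stood at 85.9% in female B, 79.1% in male B, 20.2% in female T and 34.4% in male T.
Ccr9 chr9:123757104-123757403: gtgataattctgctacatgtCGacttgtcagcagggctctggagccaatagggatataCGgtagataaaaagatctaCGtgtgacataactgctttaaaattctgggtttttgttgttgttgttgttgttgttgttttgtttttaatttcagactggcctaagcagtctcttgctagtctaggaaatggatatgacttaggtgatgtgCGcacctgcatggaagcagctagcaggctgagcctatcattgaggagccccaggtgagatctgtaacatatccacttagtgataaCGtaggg

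**Figure D3:**
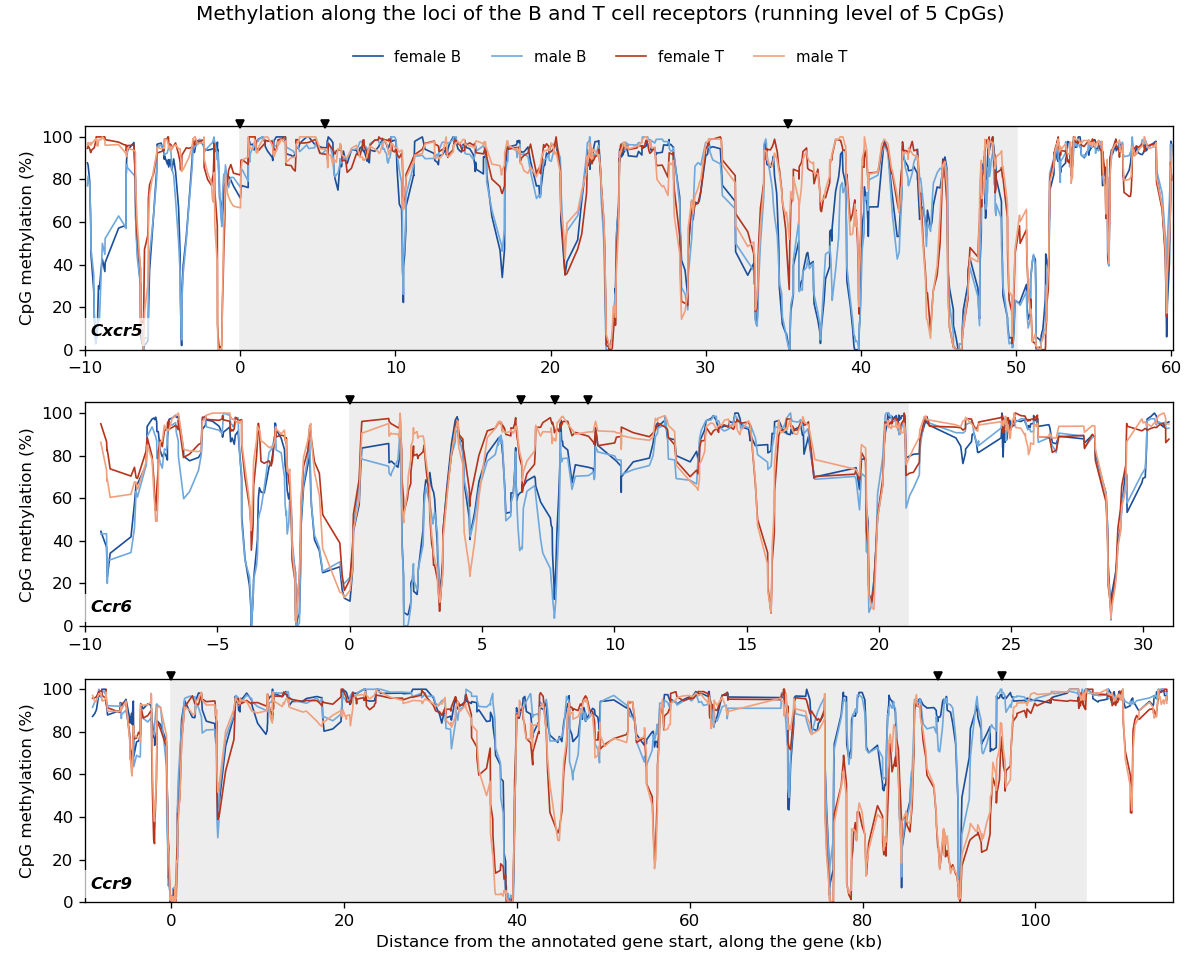
CpG methylation in percent (vertical axis, running level over 5 CpGs) along the loci of Cxcr5, Ccr6 and Ccr9, by distance from the annotated gene start in kb along the gene (horizontal axis), with lines for the 4 files, grey for the gene body and triangles for transcript starts. B files dip below T files around the last start of Cxcr5 and in the first intron of Ccr6, and T files below B files around the inner starts of Ccr9.

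Motifs were searched on both strands of the 5 printed stretches: TCCC and GGGA spaced by 2 bases (EBF factors), CTTTGAT of TCF factors, TGTGGTT of RUNX factors, GGGTGTGG of KLF factors and the E-box CAGCTG. None of these 5 was present in these stretches. Of 32851 RefSeq promoter sequences (GRCm38) of the same length, 300 bases, 0.904% held the EBF letters, 3.73% the TCF, 5.27% the RUNX, 3.56% the KLF and 16.3% the E-box letters.

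Gene starts and transcript starts were tested as well. Gene starts with 1 kb to either side gave no called promoter among the 7 genes, against 0.915% of all promoters (0.484% higher in B cells and 0.432% lower). With 2 kb to either side Cxcr5 was called at 24.7 points (adjusted p = 0.000956), against -0.949 points with 1 kb. Ccr7 was then at 19.9 points (adjusted p = 0.00714), just under the size set for a call. With 1 kb to either side, limma on log2 ratios called none. Without adjustment 2 of the 7, Ccr7 and Itgb7, had a p under 0.05, and the share of all promoters at that p was not computed. These 2 also passed the adjusted p but not the size: Ccr7 was at 22.0% in female B, 21.7% in male B, 7.88% in female T and 8.13% in male T (13.9 points, adjusted p = 0.0131). With any 1 file left out, neither of them passed (adjusted p = 0.198 to 0.293 for Ccr7 and 0.266 to 0.33 for Itgb7). Because the annotated starts of Cxcr5, Ccr6 and Ccr9 lie far from their other transcript starts, all 15 transcript starts of the 7 genes were then fitted among all starts of the genome, with 500 bp to either side. This test was added after the windows were seen. Of the 5 starts of the shared receptors none was called, and 4 were under 23% in every file. The starts of Itgb7 (13.4 points, adjusted p = 0.0061) and Ccr7 (3.94 points, adjusted p = 0.0421) passed the adjusted p and missed the size. Neither passed by limma (adjusted p = 0.205 and 0.0672), Ccr7 did not pass with any 1 file left out (adjusted p = 0.156 to 0.532), and Itgb7 passed only without the female T file (adjusted p = 0.0301). Of the 10 starts of the cell-type receptors 5 were called, against 2.63% of all starts. Of these, 3 in Cxcr5 and Ccr6 were lower in B cells (1.19% of all starts), and 2 in Ccr9 were higher in B cells (1.43%). All 5 share CpGs with windows already called, and the Cxcr5 start, the Ccr6 start at 8242526 and the last Ccr9 start hold the same CpGs and reads as such a window, so these calls are no separate result. By limma 2 of these 5 were called, the last start of Cxcr5 (adjusted p = 0.0467) and the last start of Ccr9 (adjusted p = 0.0435). Both Ccr6 starts (adjusted p = 0.173 and 0.0614) and the Ccr9 start shared by 4 transcripts (adjusted p = 0.0631) lost the call by limma. Without the male B file the Ccr6 start at 8242526 (adjusted p = 0.0729) and the last Ccr9 start (adjusted p = 0.0873) lost the call, and the other 3 kept it. The same Ccr6 start also lost it without the male T file (adjusted p = 0.0663).

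**Figure D4:**
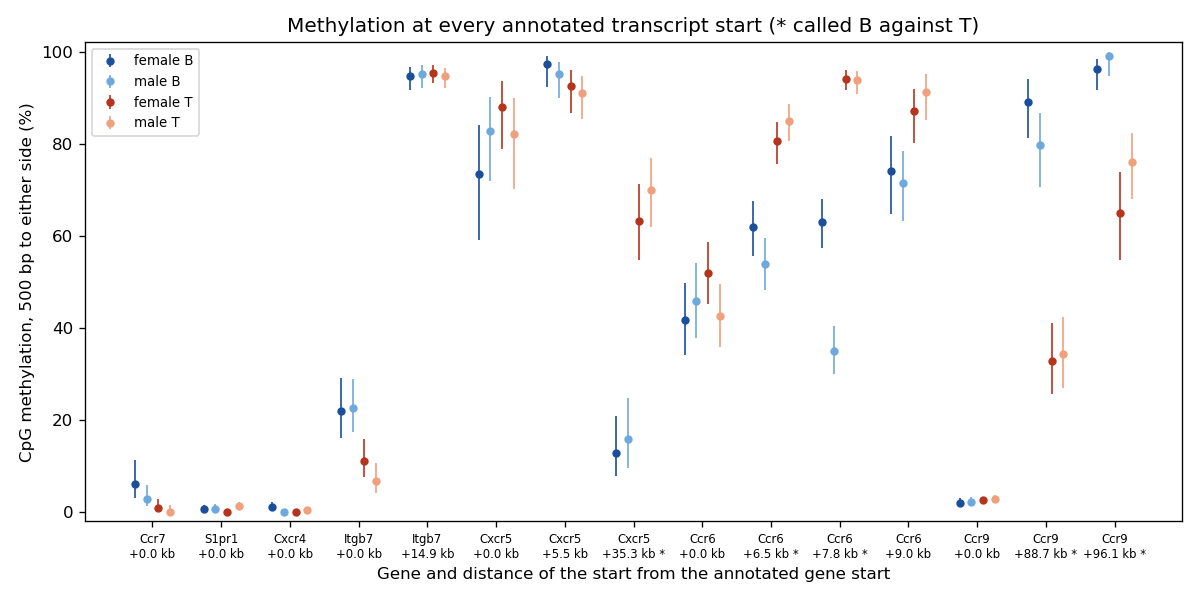
Methylation within 500 bp of each of the 15 transcript starts in percent (vertical axis), for the 4 files, with 95% Wilson intervals of counting error, by gene and distance from the annotated gene start (horizontal axis). Starts of Ccr7, S1pr1 and Cxcr4 are near 0% in all files, and the 5 starred starts of Cxcr5, Ccr6 and Ccr9 were called, with B and T files on separate sides.

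The starts also differed in CpG content. The ratio of observed to expected CpGs within 500 bp was 0.60 at S1pr1, 0.625 at Cxcr4 and 0.927 at the upstream start of Ccr9, which were at 2.69% or less in all 4 files. At the other 12 starts it was 0.107 to 0.262, with the 5 called starts at 0.135 to 0.262 and the 7 that were not called at 0.107 to 0.231. Whether the ratio goes with the calls was not tested. Among the 7 that were not called were the gene starts of Ccr7 (0.176), which was under 6% in all files, and Itgb7 (0.163).

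Over whole loci the differences were diluted. Pooled over all CpGs of the locus, Ccr7 was at 64.3% in female B, 63.7% in male B, 42.6% in female T and 42.6% in male T, and it was the one locus of 7 called (21.4 points, adjusted p = 0.0285), against 0.0925% of all gene regions. Ccr9 differed by 12.1 points (adjusted p = 0.0436), under the size set for a call, and S1pr1 by 11.9 points (adjusted p = 0.0795). Cxcr5, Ccr6, Cxcr4 and Itgb7 were lower in B cells, with mean differences from -6.54 to -1.65 points, and none of them passed the adjusted p. Over the gene bodies alone, Ccr7 differed by 38.3 points (adjusted p = 0.0051) and S1pr1 by 22.8 points (adjusted p = 0.0129), and these 2 of 7 were called, against 0.319% of all gene bodies. Ccr9 (13.7 points, adjusted p = 0.0117) and Cxcr5 (-6.64 points, adjusted p = 0.0428) passed the adjusted p but not the size over the body.

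The sexes did not differ in a called window. None of the 311 windows was called between females and males (0.00103% of autosomal windows were), and limma called none either. Without adjustment, 26 of the 311 windows had a p under 0.05 in the model and 7 in limma. The share of all windows at that unadjusted p was not computed, so these counts cannot be set against a background. The B minus T difference differed between the sexes in no called window, while 0.00679% of all windows were called. At an unadjusted p under 0.05 there were 19 windows in the loci, again without a computed share of all windows. The largest sex difference by adjusted p was in an intron of Ccr6, chr17:8240001-8241000, at 81.3% in female B, 86.0% in female T, 79.6% in male B and 59.0% in male T (14.3 points higher in females, adjusted p = 0.00127). Here 1 file, male T, stood below the other files.

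Other genes of lymphocyte trafficking were examined as a fixed list of 47 genes. In their loci 192 of 2351 windows (8.17%) were called, 138 higher and 54 lower in B cells, against 2.08% of all windows. The share was 12.6% for lipid and oxysterol receptors, 9.76% for adhesion molecules, 8.67% for chemokine receptors, 7.25% for regulators of the receptors and 1.74% for ligands (4 of 230 windows), the last being near the share of all windows. Of the 6 lipid and oxysterol receptor loci only 3 held any of the 24 called windows. Gpr183 had 13 of them, 12 higher in B cells, and Cnr2 had 9, all lower in B cells. Of the 47 promoters 5 were called, against 0.915% of all promoters, and 4 of these were higher in B cells: Ccr8 (61.7 points, adjusted p = 2.12e-06), Cxcr6 (59.6 points, adjusted p = 4.36e-05), Ccr2 (32.1 points, adjusted p = 0.0154) and the oxysterol receptor gene Gpr183 (31.4 points, adjusted p = 0.000885). Ccr8 was at 93.2% in female B, 92.0% in male B, 26.7% in female T and 35.0% in male T. Only Itga6, an integrin alpha chain, was lower in B cells, at 54.0% in female B and 49.7% in male B against 72.3% in female T and 75.3% in male T (-21.9 points, adjusted p = 0.00702). Klf2 and Foxo1, transcription factors that control S1pr1 and Ccr7, were under 1.4% at their promoters in all 4 files.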

How the data were processed

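Whole-genome bisulfite libraries were mapped by the authors to mm10 with Bismark 0.13.1 after Trim Galore and FastQC, per the labels (submitters' processing notes). The deposited files give for each CpG the methylated fraction, to 3 decimals, and the read count, and list CpGs with 5 or more reads; methylated counts were rebuilt as fraction times count. Each deposited file stands for both samples of a group, and whether their reads were merged is not given in the sources used here. No column of values was left unmapped (0). Mean depth of 14.6 to 17.7 reads limits single CpGs, so windows, promoters and starts were tested. Intervals cover counting error only. P-values of the model also cover spread between files, which may be technical, and for windows this was the genome average alone.

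CpGs with 5 or more reads in all 4 files were summed in 1 kb windows (3 or more CpGs), assigned by their centre, in 1 kb to either side of gene starts, in 500 bp to either side of transcript starts (merged within 500 bp) and in gene regions (GENCODE M21). A quasi-binomial model with terms for cell type and sex was fitted to all features. Its dispersion was squeezed with limma 3.58.1 (R 4.3.3), with the prior from features with 5 or more expected reads of each kind in every file, and F test p-values were Benjamini-Hochberg adjusted. For windows the prior had infinite degrees of freedom, so that the spread was the genome average (dispersion 1.307) and the F test became a chi-square test. The spread between files of a single window thus did not enter its p-value. Calls needed an adjusted p under 0.05 and 20 points. The window named for each locus was that with the largest called difference in each direction, and the printed stretch the 300 bases outside UTRs with the most CpGs past 20 points in both sexes. The members, gene lists and rules were chosen with earlier results of these data known, and assignment by window centre and the test of transcript starts after values were seen. Python 3.11.15 with numpy 2.4.6, pandas 2.3.3 and scipy 1.17.1 was used.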

Additional observations from a re-analysis of the deposited data

How the results depend on the processing

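The number of called windows depended on the settings. Of the 60 called windows, 43 kept the call at a threshold of 30 points (13 windows lower in B cells, 13.8% against 1.04% of all windows), 50 by Fisher's exact test within each sex (1 file against 1 file, which covers counting error only), 42 by limma on log2 ratios (13 lower in B cells, 13.5% against 1.02%) and 60 without the term for sex. With the dispersion prior from all windows, 0 were called, 0 higher and 0 lower in B cells, as in the whole genome. A threshold of 10 points gave 94 windows (58 higher and 36 lower in B cells, 30.2% of the loci's windows against 4.19% of all) and 1 window between the sexes. Windows of 500 bp gave 90 calls (54 higher and 36 lower in B cells, 19% against 2.74%). Windows of 2 kb gave 33 (23 higher and 10 lower, 19.1% against 1.4%). Gene bodies without flanks gave 46 (33 higher and 13 lower, 25.8% against 2.08%). Windows that overlap a locus anywhere, chosen after seeing the data, gave 63. Leaving out each file in turn gave 55 to 63 called windows, of which 54 to 58 were among the 60. With 2 kb to either side of the gene start, 1 promoter was called, that of Cxcr5, whose difference turned from -0.949 to 24.7 points because the upstream window that is higher in B cells was then included. A threshold of 10 points called 2 promoters and 2 gene regions, and 2 gene regions were called without flanks. Of the transcript starts, 2 were called by limma and 3 to 5 with 1 file left out, with the fewest without the male B file. With 10 or more reads in all files 4 starts were called, and the last Cxcr5 start, which had the largest difference, could not be tested. No paired analysis was possible because each group has 1 file and no replicate numbers pair animals. B and T cells were compared within each sex through the term for sex. Causes were not tested where none is given. With 1 file per group, spread between animals could not be seen.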
